A study of Homo sapiens with 6 samples.

Results

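The interferon-stimulated genes examined here are a list of 40 human genes that cells switch on in response to interferons, chosen by gene symbol, with earlier results of these data known, and not by a threshold on their values. The table of the series held 39 of them among 30716 genes, and XAF1 was not analysed here. Their levels were compared between 3 libraries of SNU16 cells with a non-targeting shRNA (shcon) and 3 libraries of SNU16 cells with an shRNA directed at ENO1 (shENO1). SNU16 is a human gastric cancer line, and ENO1 encodes the glycolytic enzyme alpha-enolase. The labels describe delivery of the hairpin by lentivirus and puromycin selection for stable expression. They name 1 hairpin group against ENO1 and hold no library of cells without a hairpin, so a response shared by both groups cannot be seen in these data. The libraries are called biological replicates, but nothing states that they came from separate cultures. All p-values thus reflect only how far these libraries scatter, which may be technical scatter.

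Interferons are secreted proteins that cells release when their sensors detect foreign or misplaced nucleic acid, including double-stranded RNA. Type I interferons bind the receptor of IFNAR1 and IFNAR2, and the kinases JAK1 and TYK2 then activate transcription factors that include STAT2, which joins IRF9 on a promoter sequence called the interferon-stimulated response element (ISRE). Interferon gamma acts on a second sequence, the gamma-activated site (GAS). The induced genes encode sensors, enzymes that attack viral RNA, membrane proteins that hinder virus entry or release, and regulators that amplify or end the response. Hairpin RNAs are double-stranded, so these genes are commonly inspected in shRNA experiments.

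Within the list, 9 genes were lower in shENO1 cells than in shcon cells, 1 was higher, and 20 passed the test in neither direction. The 9 lower genes were IFI6, ISG15, IFITM2, LGALS3BP, DHX58, TRIM21, IFI35, IRF1 and IFITM3, which stood at 31.9% to 73.0% of their shcon mean, and the higher gene was SAMD9. The other 9 genes of the list, which include the classical response genes MX1, RSAD2, IFI44L and OAS2, lay under 0.5 FPKM in the mean of the 6 libraries and were not tested. FPKM are fragments per kilobase of exon, normalised to sequencing depth, as the authors computed them. The groups were compared on log2(FPKM + 1) with limma over the 15181 genes whose mean reached 0.5 FPKM, and a gene was called at a Benjamini-Hochberg adjusted p under 0.05. The 9 lower genes are 30% of the 30 tested, where 14.4% of all genes tested were called lower. The 1 higher gene is 3.33%, where 15.1% of all genes tested were called higher. The median log2 fold change of the 30 genes was -0.18, with 23 negative and 7 positive values, and the median of all genes tested was 0.03. In bulk RNA, fewer cells of a type and less RNA per cell cannot be told apart.

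ENO1 itself was at 323, 312 and 386 FPKM in the shcon libraries and at 99.5, 84.9 and 91.1 FPKM in the shENO1 libraries (log2 fold change -1.88, adjusted p = 0.000425 from limma). The libraries held an estimated 15572967 to 16964561 fragments, and 1 fragment of a transcript of 1 kilobase corresponded to 0.0589 to 0.0642 FPKM. The library shcon replicate 3 stood apart within the list. It was the highest of the 3 shcon libraries for 20 of the 30 genes tested (66.7%), against 39.8% of all genes tested. It was the highest of all 6 libraries for 15 of the 30 (50%), against 18.6% of all genes tested. The epithelial keratin genes were high and fell without overlap, KRT8 from 193 to 255 FPKM in shcon to 85.9 to 96.5 FPKM in shENO1 libraries (log2 fold change -1.26, limma adjusted p = 0.00185) and KRT18 from 215 to 278 FPKM to 101 to 122 FPKM (-1.10, adjusted p = 0.00285). Of the 7 epithelial and gastric carcinoma markers tested, ELF3 was also called lower (-0.66), MYC was called higher (0.39) and CLDN4 was not called (0.18), while EPCAM (0.819 to 1.59 FPKM) and CDH1 (0.602 to 1.21 FPKM) were low and KRT19 and CEACAM5 did not exceed 0.0515 and 0.0157 FPKM. The part of these changes in the results for the list was not tested. Of 13 leukocyte markers, 6 were in the table. Their summed level was 1.21 to 2.04 FPKM in shcon and 0.954 to 2.17 FPKM in shENO1 libraries, and PTPRC, the common leukocyte antigen, was at 0 in every library but shcon replicate 3, at 0.0066 FPKM. Of 9 fibroblast and endothelial markers, 8 were in the table. Their summed level was 31.5 to 45.5 FPKM in shcon and 18.6 to 20.1 FPKM in shENO1 libraries. Of the 5 tested, DCN (-1.44), CDH5 (-1.39), PDGFRB (-0.63) and LUM (-0.48) were called lower, and their part in the results for the list was not tested.

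The levels of the list ran from 0 to 300.2 FPKM. BST2 and LGALS3BP were above 100 FPKM in the mean of the 6 libraries, 10 genes lay between 10 and 100 FPKM, and 18 lay between 0.5 and 10 FPKM. The 4 highest genes, BST2, LGALS3BP, IFITM3 and IFITM2, together made up 68.9% to 74.1% of the summed level of the list in a library. That sum was 938, 921 and 1014 FPKM in the shcon libraries and 770, 666 and 685 FPKM in the shENO1 libraries, so the groups did not overlap.

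**Figure D1:**
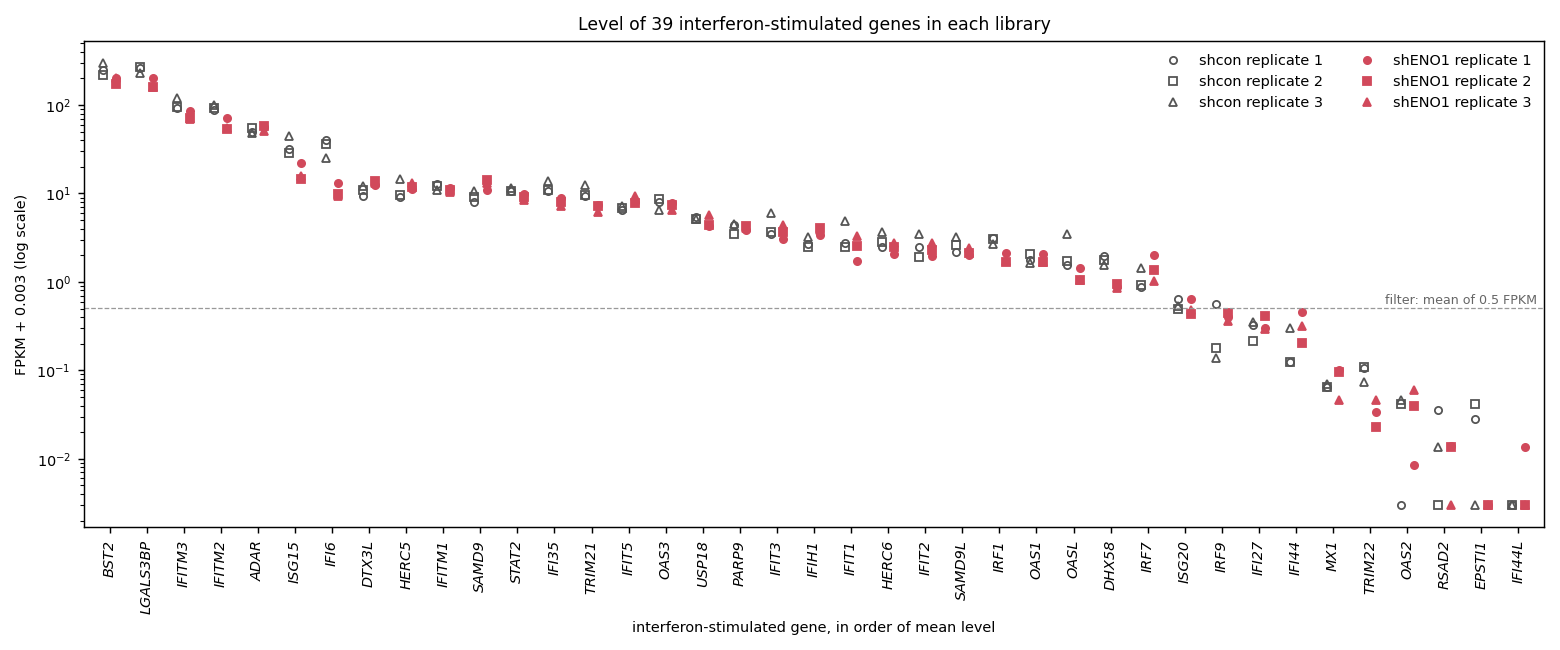
Level of each of the 39 genes (vertical axis, FPKM plus 0.003 on a log scale) in each library, with genes along the horizontal axis in order of mean level. Open grey symbols are shcon and filled red symbols shENO1, with 1 symbol shape per replicate number, and the dashed line marks 0.5 FPKM. BST2 at the left reached 300.2 FPKM in shcon replicate 3, and IFI44L at the right was at 0 in every library but shENO1 replicate 1.

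Promoter sequence was read from RefSeq windows on GRCh38.p14 that run from 250 bases before to 50 bases after an annotated gene start, for the 31 genes of the list that matched a window. The ISRE was searched as GAAANNGAAA on both strands, and the GAS as TTCNNNGAA, which reads the same on both strands and can overlap an ISRE. An ISRE match was present for 23 of the 31 genes (27 of their 40 windows), and in 3.57% of all 35116 windows. A GAS match was present for 9 of the 31 genes (10 of their 40 windows), and in 7.66% of all windows. Matches are letters in a window and no evidence of binding. The stretches printed here are those of the genes on which the results turn. They come from 6 genes called lower or close to the threshold, from the gene called higher, from IFIT1 as a response gene that was not called, and from genes at or near 0. Capitals mark ISRE and GAS matches, each stretch is written from 5′ to 3′ on the strand of its gene, and several matches overlap.
IFI6 (called lower, chr1:27672273-27672352, minus strand): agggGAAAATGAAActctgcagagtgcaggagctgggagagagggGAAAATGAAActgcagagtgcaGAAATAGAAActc
ISG15 (called lower, chr1:1013357-1013416, plus strand): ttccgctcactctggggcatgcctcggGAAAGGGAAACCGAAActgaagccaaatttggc
IFITM3 (called lower, chr11:320885-320914, minus strand): agGAAAAGGAAActgttgaGAAACCGAAAc
LGALS3BP (called lower, chr17:78979962-78979991, minus strand): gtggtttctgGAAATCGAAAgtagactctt
IRF1 (called lower, GAS only, chr5:132490864-132490923, minus strand): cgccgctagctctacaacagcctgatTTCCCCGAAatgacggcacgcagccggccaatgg
BST2 (close to the threshold, GAS overlapping ISRE, chr19:17405742-17405771, minus strand): ctcctTTCTGGGAAACTGAAACTGAAAacc
SAMD9 (called higher, chr7:93118080-93118139, minus strand): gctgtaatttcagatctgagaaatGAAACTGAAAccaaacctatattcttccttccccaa
IFIT1 (not called, chr10:89392483-89392542, plus strand): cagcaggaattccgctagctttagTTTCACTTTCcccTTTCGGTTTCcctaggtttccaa
IFI44L (near 0, chr1:78620258-78620387, plus strand): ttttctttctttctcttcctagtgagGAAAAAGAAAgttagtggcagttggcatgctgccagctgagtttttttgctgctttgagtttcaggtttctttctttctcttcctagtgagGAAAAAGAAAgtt
RSAD2 (near 0, chr2:6877622-6877651, plus strand): ctgtttcaacTTTCAGTTTCacatgtggaa
EPSTI1 (near 0, chr13:42992272-42992331, minus strand): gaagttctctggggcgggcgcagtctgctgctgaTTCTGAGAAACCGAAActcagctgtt

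Matches occurred among genes of every outcome of the comparison. Of the 9 genes called lower, 7 had a window and 5 of these held an ISRE match, and of the 20 genes tested and not called, 16 had a window and 11 held one. Of the 9 genes under the filter, 7 had a window and 6 held an ISRE match. HERC6, SAMD9L, ADAR and STAT2 had a window with neither match. PARP9 and DTX3L, which lie head to head on chromosome 3, share 1 ISRE match between their starts, 41 bases before the start of PARP9 and overlapping that of DTX3L.

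**Figure D2:**
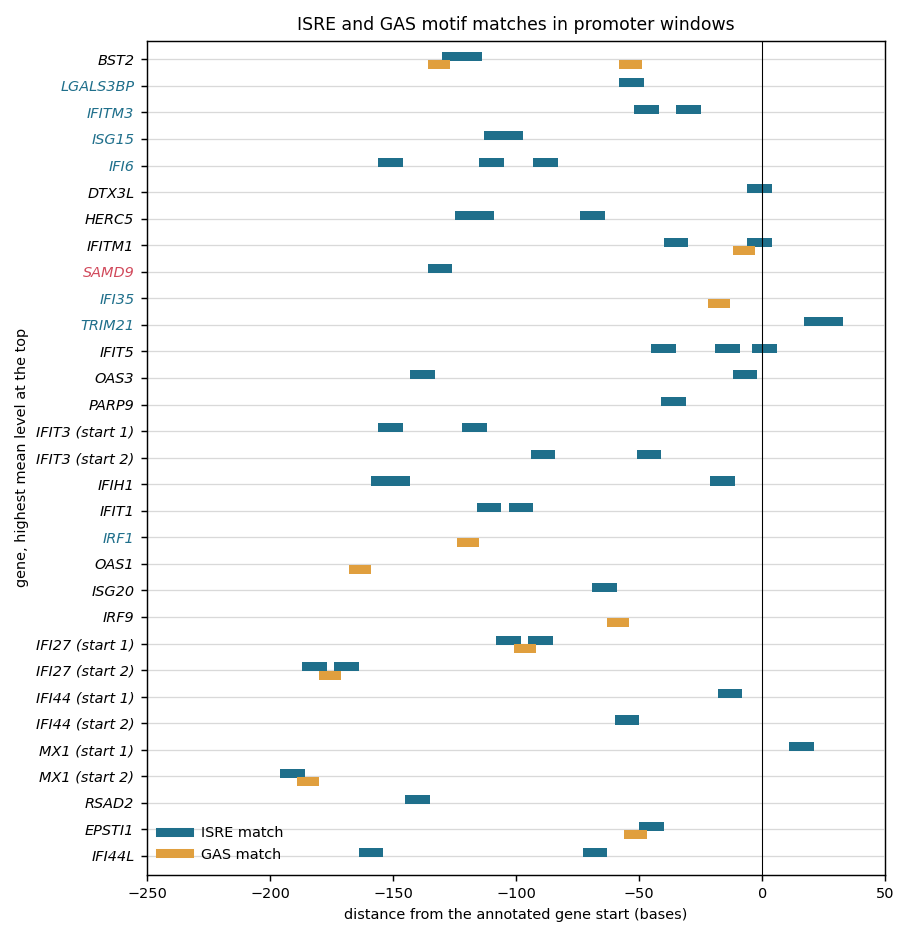
Position of ISRE matches (blue) and GAS matches (orange) along the promoter window of each gene with a match, as distance from the annotated gene start in bases, with genes ordered by mean level from the top. Names of genes called lower are blue and that of the gene called higher is red; ISRE matches occur among genes of every outcome, including the genes near 0 at the bottom.

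IFI6 showed the largest log2 fold change of the 30 genes tested. IFI6 (ENSG00000126709), a small hydrophobic membrane protein that interferon induces in many cell types, lies on chr1:27666064-27672212 of GRCh38 as the table gives it. It was at 40.1, 35.8 and 25.2 FPKM in the shcon libraries and at 13.0, 9.95 and 9.26 FPKM in the shENO1 libraries. Every shENO1 library lay below every shcon library, and here shcon replicate 3 was the lowest control. The mean was 33.7 ± 7.70 FPKM (SD, n = 3) in shcon and 10.7 ± 2.00 FPKM (SD, n = 3) in shENO1 cells, so that shENO1 cells held 31.9% of the control level. The log2 fold change was -1.55 (standard error 0.19, 95% interval -1.99 to -1.12, limma adjusted p = 0.00344). IFI6 was called lower in all 17 alternative analyses, with log2 fold changes from -1.88 to -1.12 and adjusted p from 0.000448 to 0.0224. Its promoter stretch printed above holds 3 ISRE matches, of which the first 2 have the same letters.

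ISG15 fell as well. ISG15 is a ubiquitin-like protein that is linked to other proteins during the interferon response. It was at 31.6, 28.5 and 44.5 FPKM in the shcon libraries and at 22.4, 14.8 and 15.8 FPKM in the shENO1 libraries. The groups did not overlap, shcon replicate 3 was highest, and shENO1 replicate 1 lay between the rest of its group and the controls. The log2 fold change was -0.94 (standard error 0.20, 95% interval -1.41 to -0.48, limma adjusted p = 0.0136), and shENO1 cells held 50.6% of the control level. The call was lost without shENO1 replicate 2 (adjusted p = 0.0576) and without shENO1 replicate 3 (adjusted p = 0.0539). HERC5, the main human ligase for ISG15, was at 9.07, 9.56 and 14.6 FPKM in shcon and 11.3, 11.7 and 13.3 FPKM in shENO1 libraries, with overlap (log2 fold change 0.15, adjusted p = 0.535). Without shcon replicate 3, HERC5 was called higher (log2 fold change 0.34, adjusted p = 0.0273). HERC6, which serves as the ISG15 ligase in mouse, was at 2.98 ± 0.585 FPKM in shcon and 2.44 ± 0.357 FPKM in shENO1 cells (SD, n = 3) and was not called (log2 fold change -0.20, limma adjusted p = 0.285). USP18, the protease that removes ISG15 and restrains signalling from IFNAR2, overlapped between the groups at 4.25 to 5.70 FPKM. Its log2 fold change was -0.12 (95% interval -0.38 to 0.15), and 23.4% of its distinct words of 50 bases also occur in other genes, chiefly USP41. UBE2L6 and UBA7, the conjugating and activating enzymes for ISG15, are outside the list, and UBA7 was singled out after its values were seen. UBE2L6 was lower in shENO1 cells (log2 fold change -0.64, limma adjusted p = 0.00758), but not with trends over GC content and length removed (-0.23, adjusted p = 0.162). UBA7, under the filter, was at 0.688, 0.811 and 0.621 FPKM in shcon and 0.296, 0.259 and 0.169 FPKM in shENO1 libraries.

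Among the ubiquitin ligases outside the HERC family, TRIM21 fell. TRIM21 binds antibody-coated virus in the cytosol. It was at 9.36, 9.74 and 12.4 FPKM in shcon and at 7.31, 7.22 and 6.24 FPKM in shENO1 libraries, without overlap (log2 fold change -0.53, standard error 0.12, limma adjusted p = 0.0174). Its call was lost without shENO1 replicate 2 (adjusted p = 0.059) and without shENO1 replicate 3 (adjusted p = 0.0695). DTX3L was at 9.32, 11.1 and 12.2 FPKM in shcon and 12.6, 13.9 and 13.3 FPKM in shENO1 libraries. Every shENO1 library of DTX3L was above every control, but the gene was not called (log2 fold change 0.27, adjusted p = 0.0996), and without shcon replicate 3 it was called higher (log2 fold change 0.35, adjusted p = 0.0295). PARP9, which forms a complex with DTX3L, was at 4.12 ± 0.536 FPKM in shcon and 4.07 ± 0.231 FPKM in shENO1 cells (SD, n = 3), with a 95% interval of the log2 fold change from -0.26 to 0.24. TRIM22, an antiviral ubiquitin ligase, was under the filter with 10, 10 and 7 fragments in the shcon and 3, 2 and 4 fragments in the shENO1 libraries.

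Membrane proteins that act on virus particles were the most abundant class, and 2 of the 4 were called lower. The IFITM proteins hinder the fusion of virus and cell membranes. IFITM2 was at 87.2, 93.7 and 99.6 FPKM in shcon and 71.9, 54.0 and 55.2 FPKM in shENO1 libraries (log2 fold change -0.63, standard error 0.13, limma adjusted p = 0.011). IFITM3 was at 93.6, 96.1 and 122 FPKM in shcon and 85.6, 71.4 and 70.2 FPKM in shENO1 libraries (log2 fold change -0.44, standard error 0.13, limma adjusted p = 0.0379). For both genes the groups did not overlap and shENO1 replicate 1 was the highest of its group. IFITM1 ranged from 10.3 to 12.7 FPKM with overlap (log2 fold change -0.11, 95% interval -0.33 to 0.10), and with trends over GC content and length removed IFITM1 and IFITM3 turned positive (0.25 and 0.08, neither called). IFITM2 lost its call without shENO1 replicate 2 (adjusted p = 0.0531), and IFITM3 without any 1 of shcon replicate 1, shcon replicate 2, shENO1 replicate 2 or shENO1 replicate 3 (adjusted p from 0.0609 to 0.132) or under quantile normalization (-0.28, adjusted p = 0.0798). The 3 IFITM genes lie beside each other on chromosome 11 and share sequence. Of their distinct words of 50 bases, 32% in IFITM1, 34.1% in IFITM2 and 17.4% in IFITM3 also occur in other genes on the same strand, chiefly each other, so their separate values are uncertain.

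BST2, or tetherin, which holds budding virus at the cell surface, was the highest gene of the list. It was at 251, 218 and 300.2 FPKM in shcon and 200.1, 172 and 201 FPKM in shENO1 libraries. Each shENO1 library was below each control, yet the gene narrowly missed the threshold (log2 fold change -0.41, 95% interval -0.72 to -0.11, limma adjusted p = 0.0501). With the replicate number as a block, it was called (adjusted p = 0.0161). With trends over GC content and length removed, its log2 fold change was 0.05.

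LGALS3BP and IFI35 were lower in shENO1 cells. LGALS3BP, a secreted glycoprotein that binds galectins, was at 264, 269.7 and 228 FPKM in shcon and 200.1, 162 and 158 FPKM in shENO1 libraries. The groups did not overlap (log2 fold change -0.55, standard error 0.12, limma adjusted p = 0.0148). IFI35, a cytosolic partner of the interferon-induced protein NMI, was at 10.6, 11.0 and 13.9 FPKM in shcon and 8.79, 7.98 and 7.25 FPKM in shENO1 libraries (log2 fold change -0.51, standard error 0.12, limma adjusted p = 0.0207). For IFI35 the groups did not overlap and shcon replicate 3 was highest, whereas for LGALS3BP it was the lowest control. Without shENO1 replicate 2 the adjusted p was 0.0682 for LGALS3BP and 0.0763 for IFI35, and without shENO1 replicate 3 it was 0.0643 and 0.0808. Without shcon replicate 1, LGALS3BP also lost its call (adjusted p = 0.0629), as it did under quantile normalization (log2 fold change -0.26, adjusted p = 0.123).

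SAMD9 was the single gene of the list called higher. SAMD9 and SAMD9L are neighbouring paralogs on chromosome 7 that restrict poxviruses. SAMD9 was at 8.06, 9.01 and 10.7 FPKM in shcon and 10.8, 14.3 and 13.3 FPKM in shENO1 libraries. The groups were separated only by the gap between shcon replicate 3 and shENO1 replicate 1 (log2 fold change 0.43, standard error 0.13, limma adjusted p = 0.0471). Its call was lost without any 1 of shcon replicate 1, shcon replicate 2, shENO1 replicate 2 or shENO1 replicate 3 (adjusted p from 0.111 to 0.166), and also under quantile normalization (0.0545) or median-of-ratios scaling (0.0619). With trends over GC content and length removed, its log2 fold change was -0.02. SAMD9L was at 2.67 ± 0.512 FPKM in shcon and 2.19 ± 0.208 FPKM in shENO1 cells (SD, n = 3) and was not called (log2 fold change -0.19, limma adjusted p = 0.277). The difference between the paralogs was not tested.

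Among the sensors of foreign RNA, DHX58 fell and IFIH1 did not pass the test. DHX58 encodes LGP2, a helicase that modulates the sensors RIG-I and MDA5. It was at 1.97, 1.78 and 1.54 FPKM in shcon and 0.881, 0.940 and 0.856 FPKM in shENO1 libraries, which corresponds to 98 to 123 and to 51 to 61 fragments. The groups did not overlap, and shENO1 cells held 50.5% of the control level (log2 fold change -0.55, standard error 0.11, limma adjusted p = 0.0116). Its call was lost without shcon replicate 1 (adjusted p = 0.0579). IFIH1, the gene of MDA5, a sensor of long double-stranded RNA, was at 2.71, 2.49 and 3.24 FPKM in shcon and 3.38, 4.12 and 3.87 FPKM in shENO1 libraries. All shENO1 libraries were above all controls (log2 fold change 0.33, 95% interval 0.07 to 0.59, adjusted p = 0.0598), and without shcon replicate 3 the gene was called higher (log2 fold change 0.41, adjusted p = 0.0233).

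The OAS proteins sense double-stranded RNA and make an oligoadenylate that activates RNase L, except OASL, which lacks this activity. None of the 3 tested was called. OAS1 was at 1.82 ± 0.226 FPKM in shcon and 1.80 ± 0.222 FPKM in shENO1 cells (SD, n = 3), with a 95% interval of the log2 fold change from -0.27 to 0.25. OAS3 was at 7.72 ± 1.17 and 7.18 ± 0.662 FPKM (SD, n = 3), with an interval from -0.37 to 0.20. OASL was at 1.57, 1.72 and 3.51 FPKM in shcon and 1.43, 1.05 and 1.06 FPKM in shENO1 libraries. The groups of OASL did not overlap, but shcon replicate 3 was 2.14-fold above the mean of the other controls (log2 fold change -0.54, adjusted p = 0.0945; -0.29 and adjusted p = 0.12 without that library). OAS2, between OAS3 and the end of the same cluster on chromosome 12, had 0 to 10 fragments per library.

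The IFIT proteins bind foreign RNA or form complexes that do so, and none of the 4 genes was called. IFIT1 was at 2.77, 2.46 and 4.86 FPKM in shcon and 1.70, 2.56 and 3.28 FPKM in shENO1 libraries (log2 fold change -0.30, 95% interval -0.84 to 0.25). IFIT2 was at 2.61 ± 0.800 FPKM in shcon and 2.34 ± 0.376 FPKM in shENO1 cells, and IFIT3 was at 4.41 ± 1.45 and 3.72 ± 0.670 FPKM (SD, n = 3). In these 3 genes shcon replicate 3 was the highest of all 6 libraries, 1.59-fold to 1.86-fold above the mean of the other controls. Without it the log2 fold changes of IFIT2 and IFIT3 turned from -0.10 to 0.07 and from -0.17 to 0.04. With trends over GC content and length removed, IFIT1, IFIT2 and IFIT3 were at -0.54, -0.31 and -0.24, none of them called. With the replicate block as well, IFIT1 was called lower (limma adjusted p = 0.0323). IFIT5 was at 6.49, 6.79 and 7.16 FPKM in shcon and 7.92, 7.83 and 9.45 FPKM in shENO1 libraries. Its groups did not overlap (log2 fold change 0.26, limma adjusted p = 0.0807), it was called higher with the replicate block (adjusted p = 0.0432), and with trends over GC content and length removed its log2 fold change was -0.09.

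Of the transcription factors of the list, IRF1 fell. IRF1, which interferon gamma induces through a GAS, was at 3.15, 3.02 and 2.65 FPKM in shcon and 2.12, 1.69 and 1.73 FPKM in shENO1 libraries. The groups did not overlap (log2 fold change -0.47, standard error 0.11, limma adjusted p = 0.0169). The call was lost without any 1 of shcon replicate 1, shcon replicate 2, shENO1 replicate 2 or shENO1 replicate 3 (adjusted p from 0.0526 to 0.0763). Of its distinct words of 50 bases, 21.2% lie opposite another gene, and whether the counting used strand is not given in the sources used here. STAT2 was at 10.6, 10.6 and 11.6 FPKM in shcon and 9.98, 9.22 and 8.51 FPKM in shENO1 libraries, without overlap and without a call (log2 fold change -0.22, adjusted p = 0.103). IRF7, the inducer of interferon alpha genes, was at 0.87, 0.91 and 1.43 FPKM in shcon and 2.02, 1.38 and 1.01 FPKM in shENO1 libraries, with overlap (log2 fold change 0.24, adjusted p = 0.333). IRF9 was under the filter at 0.134 to 0.566 FPKM, with the highest value in shcon replicate 1, and 43.6% of its distinct words of 50 bases also occur in other genes.

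Enzymes that act on nucleic acids and nucleotides gave no call. ADAR, which edits adenosine to inosine in double-stranded RNA, was at 49.5, 55.5 and 48.6 FPKM in shcon and 55.8, 57.6 and 50.9 FPKM in shENO1 libraries, with overlap (log2 fold change 0.10, 95% interval -0.12 to 0.31). ISG20, an exonuclease, ranged from 0.427 to 0.632 FPKM and had 52 to 74 fragments per library (log2 fold change -0.04). MX1, a dynamin-like GTPase that is among the genes most strongly induced by type I interferon, had 12 to 29 fragments per library, or 0.0428 to 0.0988 FPKM. RSAD2, the gene of viperin, which makes an antiviral nucleotide, had 0 to 3 fragments per library.

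The genes under the filter stayed near 0 in both groups. IFI44L had 1 fragment in shENO1 replicate 1 and 0 in the other libraries. EPSTI1 had 2, 3 and 0 fragments in the shcon and 0 in each of the shENO1 libraries, where a count of 0 allows up to 3 fragments per library, so no fold change is given. IFI44 had 4, 4 and 10 fragments in shcon and 15, 7 and 10 in shENO1 libraries. IFI27, a relative of IFI6, had 14 to 29 fragments per library, or 0.211 to 0.412 FPKM. In these 4 genes the groups overlapped, and counting error alone is large at such depths.

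**Figure D3:**
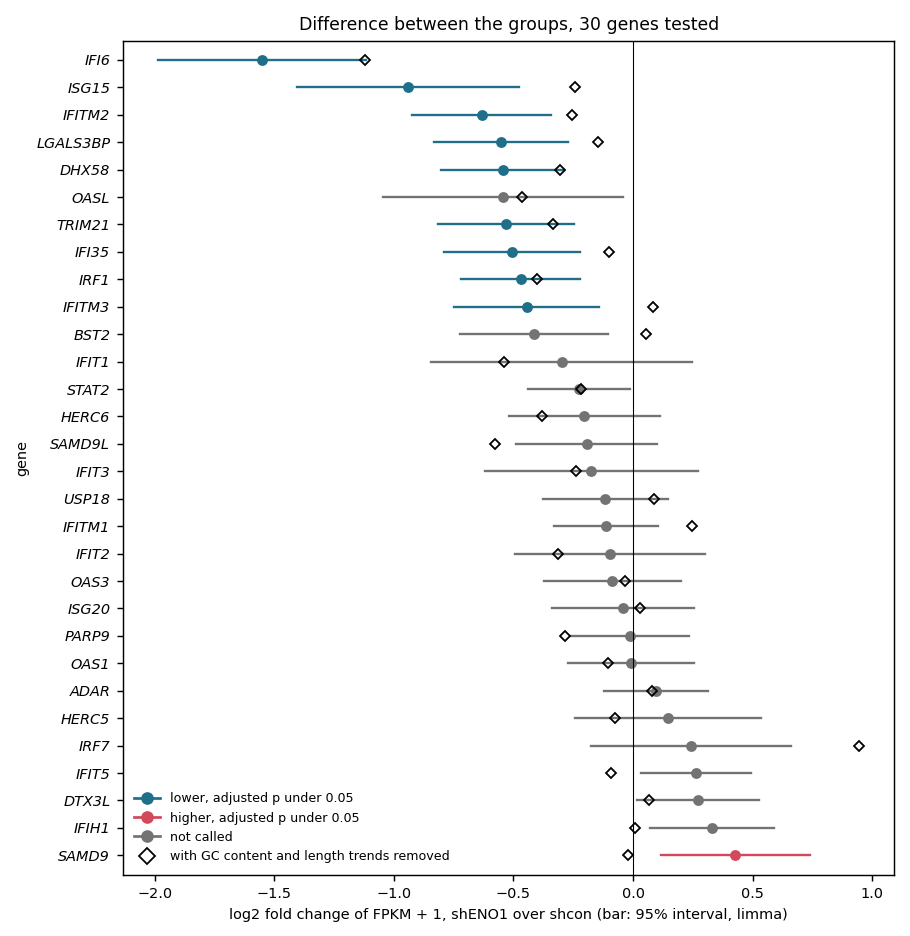
Log2 fold change of FPKM + 1 (shENO1 over shcon, horizontal axis) with its 95% interval from limma for the 30 genes tested, in order of size. Blue marks genes called lower, red the gene called higher and grey genes not called; open diamonds are the values with GC content and length trends removed, which lie nearer 0 than the dot for ISG15, IFITM2 and LGALS3BP and at -1.12 for IFI6.

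Over the list, every shENO1 library lay below every shcon library for 12 of the 30 genes tested (40%), where this held for 21.5% of all genes tested. Every shENO1 library lay above every shcon library for 4 genes, IFIT5, IFIH1, DTX3L and SAMD9, where this held for 25% of all genes tested. Without shcon replicate 3, the lower calls were the same 9 genes (18.2% of all genes tested were then called lower), and the higher calls were SAMD9, IFIH1, DTX3L and HERC5 (19.8% of all genes tested). Without shENO1 replicate 2, the lower calls were IFI6 and DHX58 only, with 4.98% of all genes called lower. Without shENO1 replicate 3 they were IFI6, IFITM2 and DHX58, with 5.9% of all genes. Without shcon replicate 1 they were IFI6, IFI35, IFITM2, ISG15 and TRIM21, with 6.13% of all genes. In these 3 analyses no gene of the list was called higher, where 4.94%, 6.24% and 6.11% of all genes were. Without shcon replicate 2 there were 8 lower calls (9.59% of all genes) and 0 higher (10.1% of all genes), and without shENO1 replicate 1 there were 9 and 1 (15.5% and 14.3% of all genes). Without both shcon replicate 3 and shENO1 replicate 1 there were 12 lower and 5 higher calls, with 23.6% of all genes called in either direction. With the replicate number as a block, which pairs equally numbered libraries, there were 10 lower calls (17.9% of all genes) and 2 higher calls (19.3% of all genes), the additions being BST2 and IFIT5.

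**Figure D4:**
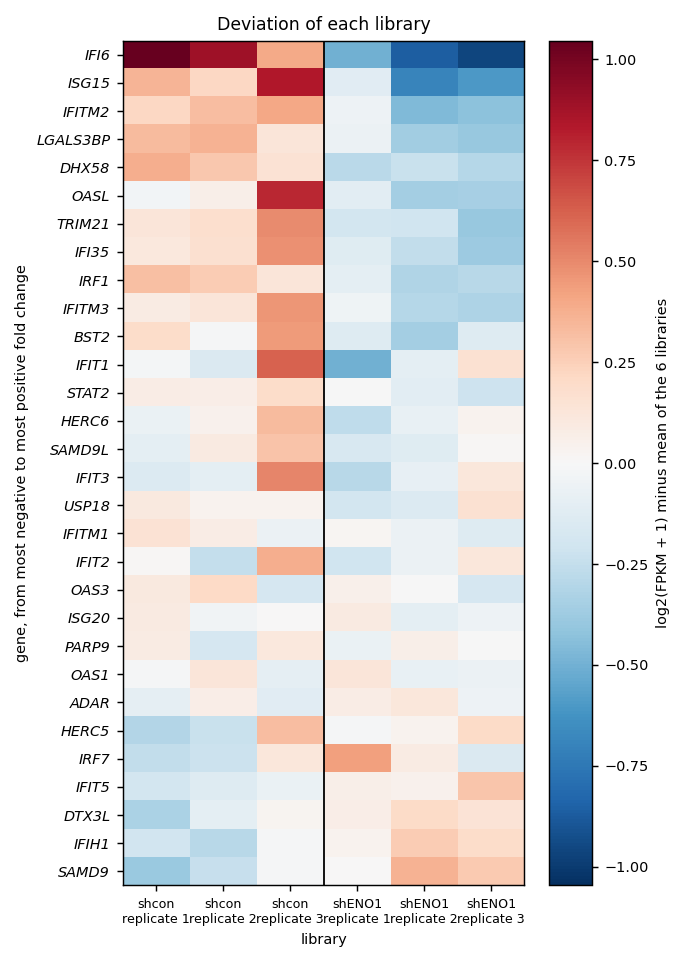
Deviation of each library (columns) from the mean of the 6 libraries in log2(FPKM + 1) for the 30 genes tested (rows, from the most negative to the most positive fold change). Red is above and blue below the mean; the IFI6 row is red in every shcon and blue in every shENO1 library, and shcon replicate 3 is the darkest red for ISG15, OASL, IFIT1 and IFIT3.

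Fold changes in the list fell with exonic GC content. Across the 30 genes, which are not independent replicates and share the 6 libraries, log2 fold change and GC content had a Spearman rho of -0.59 and a Pearson r of -0.54. Across 15031 genes tested with a GC value the rho was -0.61. The 9 genes called lower had a median GC content of 56.3% (range 51.0% to 63.9%), the 21 genes not called lower had a median of 45.1%, and all genes tested had 48.1%. The tenth of genes with the highest GC content deviated from the mean by 0.381, 0.286 and 0.165 on the log2 scale in the shcon and by -0.0284, -0.383 and -0.406 in the shENO1 libraries (medians), so libraries also differed along this gradient within each group.

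After each library was corrected for trends over exon length and GC content, 5 genes of the list were called lower, IFI6, IRF1, TRIM21, SAMD9L and HERC6, where 10.1% of all genes were called lower, and 1 was called higher, IRF7, where 11.9% were. Of the 9 genes called lower without this step, 3 remained, IFI6, IRF1 and TRIM21. With the replicate block as well, TRIM21 was not called (limma adjusted p = 0.0728) and IFIT1 was called lower (-0.54, adjusted p = 0.0323). The median log2 fold change of the list became -0.13, with 21 negative and 9 positive values, beside 0.02 for all genes. IFI6 stayed at -1.12 (limma adjusted p = 0.0066), where genes within 2 points of its GC content had a median of -0.19 before the step. ISG15 moved to -0.24 (adjusted p = 0.36), where genes of like GC content had a median of -0.43. SAMD9 moved to -0.02 and IFIH1 to 0.01, where genes of like GC content had medians of 0.33 and 0.27. SAMD9L moved to -0.58 (limma adjusted p = 0.00842), and IRF7 to 0.95 (adjusted p = 0.0128). Genes of like GC content had medians of 0.30 and -0.53 before the step. All these medians match GC content only and not exon length. The separate parts of GC content and exon length in the shifts were not tested. SAMD9L, IRF7, HERC6 and IRF1 had means of 2.43, 1.27, 2.71 and 2.39 FPKM. These lie under the 5 FPKM of the genes that the trends were fitted on. Whether the correction is too large for such low genes was not tested. Removing a trend would also remove biology that follows it.

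**Figure D5:**
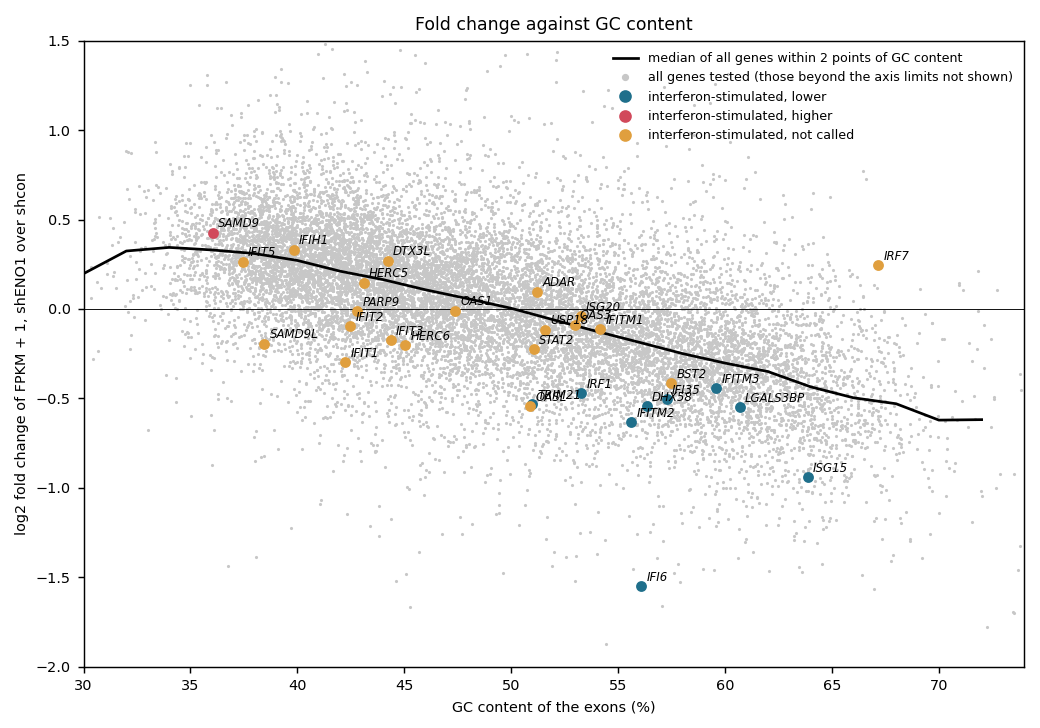
Log2 fold change (vertical axis, shENO1 over shcon) against GC content of the exons (horizontal axis, percent) for all genes tested (grey) and for the genes of the list (blue called lower, red called higher, orange not called). The black line is the median of all genes within 2 points of GC content; SAMD9, IFIH1 and BST2 lie near it, IFI6 at -1.55 lies far below it and IRF7 above it.

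The interferon pathway outside the list was taken from 121 listed genes, of which 89 were in the table and 72 were tested. Of these 72, 11 were lower (15.3%) and 9 were higher (12.5%) in shENO1 cells, close to the 14.4% and 15.1% of all genes tested, and their median log2 fold change was 0.02. Among them were 41 further interferon-stimulated genes, with 6 lower (14.6%) and 2 higher calls (4.88%). After removal of trends over GC content and length, these 41 held 10 lower (24.4%) and 3 higher calls. Of all genes, 10.1% were then lower and 11.9% higher. The median log2 fold change of the 41 was 0.01 before and -0.13 after this step. Of the interferon genes themselves, IFNE was analysed, at 0.125 to 0.480 FPKM in all 6 libraries. The receptor genes IFNAR1 (log2 fold change 0.49, limma adjusted p = 0.0124) and IFNGR1 (0.44, adjusted p = 0.0177) were higher in shENO1 cells. IFNGR2 (0.27), IFNLR1 (0.26) and IFNAR2 (0.00) were not called, and IL10RB was under the filter at 0.122 to 0.304 FPKM. Lower by at least 0.5 were PSMB9 (-1.26) and PSMB8 (-0.62), subunits of the immunoproteasome, the ADP-ribosyltransferase PARP10 (-1.08), the membrane-anchored LY6E (-1.02), UBE2L6 (-0.64), the RNA-binding Dicer partner TARBP2 (-0.62) and the phosphatase PTPN6 (-0.51), which damps cytokine signalling. Higher by at least 0.5 were GCH1 (0.71), the first enzyme of tetrahydrobiopterin synthesis, the kinase JAK2 (0.64) and the DNA sensor CGAS (0.50). With trends over GC content and length removed, UBE2L6, PTPN6 (-0.15, limma adjusted p = 0.197) and CGAS (0.26, adjusted p = 0.0838) were no longer called, and LY6E moved to -0.44, PARP10 to -0.61, TARBP2 to -0.37, JAK2 to 0.33, IFNAR1 to 0.25 and IFNGR1 to 0.26. With the replicate block there were 13 lower and 13 higher calls, where 17.9% and 19.3% of all genes were called. The block added PSME1, LAP3, TICAM1, PLSCR1, TRIM38, PARP14 and NT5C3A, and IRF5 was lost (limma adjusted p = 0.0622). The lower calls numbered 5 without shENO1 replicate 2, and 7 without shcon replicate 1 or shENO1 replicate 3. Of all genes, 4.98%, 6.13% and 5.9% were lower in these 3 settings. The higher calls numbered 18 without shcon replicate 3 (19.8% of all genes) and 5 without shcon replicate 2 (10.1% of all genes). They numbered 2 without any 1 of shcon replicate 1, shENO1 replicate 2 or shENO1 replicate 3. Of all genes, 6.11%, 4.94% and 6.24% were then higher.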

How the data were processed

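RNA of 3 shcon and 3 shENO1 libraries of SNU16 cells was sequenced, and the authors deposited a table of FPKM with 1 row for each of 30716 Ensembl genes (8135 lack a symbol). The submitters' processing notes name cutadapt, featureCounts, MultiQC and GRCh38. Not given in the sources used here were the aligner, annotation release, use of strand and FPKM program. Groups came from the labels. The members and all gene lists were chosen with earlier results of these data known.

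Between 94.2% and 94.6% of a library's values up to 100 fragments were whole within 0.05 fragments at the exon lengths of GENCODE release 29, in which 29764 identifiers were found, and fragments are given on that basis. They cover counting error only.

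log2(FPKM + 1) was compared with limma 3.58.1 in R 4.3.3 (lmFit, eBayes with a variance trend) for 15181 genes whose mean reached 0.5 FPKM, with Benjamini-Hochberg adjustment over all of them. Fold changes on this scale understate changes of low genes. GC content and length trends were removed by a natural spline per library (4 degrees of freedom), fitted on 7368 genes with at least 5 FPKM outside the lists. Whether equal replicate numbers pair the samples is not settled. Deviations from the group mean correlated at 0.230, 0.118 and 0.256 between libraries of equal number, and those of other pairs at -0.208 to 0.061. These correlations were computed without removal of the GC content trend, along which both groups run in order of replicate number. A replicate block was therefore run as an alternative, and the genes whose call it changes are named.

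Every gene of the list is named. Values per library are given for called genes and for genes with a group mean of 20 FPKM or more, and further where groups did not overlap or 1 library decided a value. Interferon pathway genes outside the list are named if called with an absolute log2 fold change of at least 0.5, interferon and receptor genes in any case, and others where the block changes their call, and 1 gene outside the list is not reported here. There were 15 alternatives (pseudocount, filter, scaling, block, trends, each library left out) and 2 more added after the data were seen, which leave out shcon replicate 3 together with shENO1 replicate 1, or shcon replicate 3 with the trends removed. Promoter and motif searches used Python 3.11.15 with pandas 2.3.3, and figures used matplotlib 3.10.9.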

Additional observations from a re-analysis of the deposited data

How the results depend on the processing

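IFI6 and ENO1 were called lower in all 17 alternatives. The 9 lower calls of the list became 7 with quantile normalization (IFITM3 and LGALS3BP lost), where 2314 of 15181 genes were lower. Without a filter on low values they became 3 of 39 tested, where 1302 of 30716 genes were. With a mean of at least 5 FPKM they were 8 of 17 tested, where 1814 of 7456 genes were. With median-of-ratios scaling they became 10, where 2389 of 15181 genes were. With GC content and length trends removed they became 5, where 1522 of 15031 genes were. With trends removed and the replicate block they were also 5, with IFIT1 in place of TRIM21, where 1469 of 15031 genes were. With trends removed and without shcon replicate 3 they became 4. The 1 higher call became 0 without a filter, with quantile normalization or median-of-ratios scaling, 2 with the replicate block, 2 with trends removed and without shcon replicate 3, and 5 without shcon replicate 3 and shENO1 replicate 1. Under that last setting the pathway genes outside the list gave 16 lower and 17 higher calls and the calls over all genes 3597 lower and 3608 higher. With trends removed and without shcon replicate 3, the higher pathway calls became 15. Calls over all genes under that setting are not given here. Its counts of 4, 2 and 15 thus have no share of all genes beside them. Over all genes, 1302 were lower and 1402 higher without a filter. With quantile normalization 2295 were higher, and with median-of-ratios scaling 2032 were. Without a filter the number of genes tested rose to 30716. Causes of these differences were not tested.

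Leaving out 1 library at a time gave 2 to 9 lower and 0 to 4 higher calls in the list, 5 to 12 lower and 2 to 18 higher calls among the pathway genes, and 755 to 2785 lower and 749 to 3027 higher calls over all genes. With the replicate block, BST2 (adjusted p = 0.0161) and IFIT5 (adjusted p = 0.0432) were called in addition, and no call of the list was lost.

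Signs of the log2 fold change reversed as follows. With trends removed, with or without the block, IFIT5 was at -0.09, IFITM1 at 0.25, IFITM3 at 0.08, ISG20 at 0.03, BST2 at 0.05, USP18 at 0.09, SAMD9 at -0.02 and HERC5 at -0.07. With trends removed and without shcon replicate 3, IFIT5 was at -0.16, IFITM1 at 0.16, ISG20 at 0.06, BST2 at 0.16, USP18 at 0.02 and IFITM3 at 0.19, the last called higher (limma adjusted p = 0.0416). Without shcon replicate 3 and shENO1 replicate 1, IFIT1 was at 0.11, IFIT2 at 0.15, IFIT3 at 0.14 and PARP9 at 0.07. With single libraries left out, the values ranged from -0.10 to 0.04 for PARP9, -0.07 to 0.05 for OAS1, -0.25 to 0.07 for IFIT2 and -0.29 to 0.04 for IFIT3. The sign did not reverse for IFIT1 with single libraries left out (-0.45 to -0.06). It did not reverse either for OAS1 without shcon replicate 3 and shENO1 replicate 1 (-0.13). Genes of the list under the filter, such as MX1, RSAD2 and IFI44L, were tested only in the setting without a filter, where none of them was called.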

Other observations

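Levels differed within some clusters of neighbouring genes and not in others. On chromosome 12, OAS3 was at 7.72 FPKM and OAS1 at 1.82 FPKM in the shcon mean, while OAS2 beside them was at 0.0273 FPKM. On chromosome 10, IFIT5 was at 6.81, IFIT3 at 4.41, IFIT1 at 3.36 and IFIT2 at 2.61 FPKM in the shcon mean. On chromosome 11, IFITM2 and IFITM3 stood at 93.5 and 104 FPKM in the shcon mean, while IFITM1 between them was at 11.9 FPKM. On chromosome 1, IFI44L and IFI44 were both near 0, and the window of IFI44L holds the same ISRE letters in 2 copies. Among leading response genes, ISG15 (34.9 FPKM) and IFI6 (33.7 FPKM) were expressed in shcon cells in which RSAD2 (0.0144 FPKM) and MX1 (0.0637 FPKM) were near 0. No control cells without a hairpin were among the samples, so whether these levels are those of untreated SNU16 cells was not tested.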
